A study of Mus musculus with 8 samples.

Results

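The Toll-like receptor and NF-κB pathway was followed here through 42 genes, chosen by name as the receptors, co-receptors, adaptors, kinases, transcription factor subunits and inhibitors of that signalling chain, together with its NOD-like relatives. All 42 were found among the 16650 genes of the deposited mouse liver table. All 42, like every other gene there, passed the filter of a mean normalized value of at least 1. The question was whether transcripts of this pathway differed between livers with and without hepatocyte *Mfsd2a* early in a steatohepatitis diet. *Mfsd2a* encodes a transporter of lysophosphatidylcholine.

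The controls were 4 livers of *2afl/fl* mice, which carry floxed *Mfsd2a* alleles, and the others were 4 livers labelled *L2aKO*, from mice that carry the same floxed alleles plus *Alb-Cre*, in which the albumin promoter drives Cre. Cre from that promoter acts in hepatocytes, not in the immune or vascular cells of the liver. Both genotypes received the NASH diet, a high-fat diet given with fructose in the drinking water, and the labels give an age of 10 weeks for every mouse. According to the study's methods the mice were male unless otherwise stated, the diet began in adult mice, and livers were perfused with saline before freezing. No liver on a chow diet was analysed here, so the values describe a genotype difference on 1 diet.

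Sequencing depth, recovered from the size of the smallest step between values, was about 27500000 to 30200000 reads in *2afl/fl* livers and 28200000 to 37200000 in livers labelled *L2aKO*. The targeted gene did not follow the labels. *Mfsd2a* read 467, 1569, 300 and 513 in *2afl/fl* replicates 1 to 4, and 915, 721, 1422 and 1974 in *L2aKO* replicates 1 to 4. Its log2 fold change was 1.01 ± 0.59 (SE), and the exact two-sided permutation test over the 70 assignments of livers gave p = 0.171. Gene totals do not show single exons, so the deletion itself was not tested. The second group is therefore called the livers labelled *L2aKO*, and every direction below rests on that label. These libraries measure transcripts and say nothing of the Mfsd2a protein. Hepatocyte markers were abundant in all 8 livers (summed normalized value 2326550 to 2758390), as the tissue label requires.

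Toll-like receptors sense microbial and damage-associated molecules at the cell surface or in endosomes. They recruit the adaptors MyD88 or TRIF, and MyD88 in turn binds IRAK kinases. Both adaptors lead on to the TAK1 complex, which activates the IκB kinase (IKK). IKK marks IκB proteins for destruction and so frees NF-κB dimers to enter the nucleus, where they switch on cytokine genes and also the genes of their own inhibitors. In liver the resident macrophages (Kupffer cells), hepatocytes and endothelium all carry parts of this system, and portal blood brings gut-derived ligands to it. In a whole-liver library, fewer cells of a type and less RNA per cell cannot be told apart.

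*Tlr2* and *Tifa* were the members that passed the study's criterion, an unadjusted p under 0.05 with a log2 fold change of at least 0.32 in either direction. TLR2 is the receptor for bacterial lipoproteins, and TIFA is an adaptor that passes signals on to TRAF6 and TAK1. Both were higher in livers labelled *L2aKO*, and no member was lower by that criterion. Among all genes the criterion called 2.10% in either direction, 1.32% as higher and 0.781% as lower. The 2 members called higher are 4.76% of 42, which is stated as a description. The smallest adjusted p of any member was 0.9997 (Benjamini-Hochberg over all genes, limma). Adjusted p-values under 0.05 were 0 of 16650 genes by limma, while 581 genes (3.49%) had an unadjusted p under 0.05.

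The promoters of *Tlr2* and *Tifa* are shown because these are the called members, and that of *Nfkbia* because it encodes the classical NF-κB-induced inhibitor. Each runs from 250 bases before to 50 bases after a RefSeq gene start (GRCm38.p6), 5′ to 3′ on the gene's strand, with matches to the 10-base NF-κB consensus on either strand in capitals. *Tlr2* lies at chr3:83836272-83841608 (mm10, minus strand) and its promoter at chr3:83841559-83841858. *Tifa* lies at chr3:127789872-127798394 (plus strand), with annotated promoters at chr3:127789622-127789921 and chr3:127790407-127790706. *Nfkbia* lies at chr12:55489409-55492647 (minus strand), with its promoter at chr12:55492598-55492897.
Tlr2 promoter: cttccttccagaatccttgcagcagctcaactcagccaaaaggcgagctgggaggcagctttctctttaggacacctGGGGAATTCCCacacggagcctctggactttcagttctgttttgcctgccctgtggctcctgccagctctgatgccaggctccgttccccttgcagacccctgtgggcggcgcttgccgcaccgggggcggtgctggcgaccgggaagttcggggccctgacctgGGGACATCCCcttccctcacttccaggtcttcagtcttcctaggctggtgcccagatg
Tifa promoter, upstream start: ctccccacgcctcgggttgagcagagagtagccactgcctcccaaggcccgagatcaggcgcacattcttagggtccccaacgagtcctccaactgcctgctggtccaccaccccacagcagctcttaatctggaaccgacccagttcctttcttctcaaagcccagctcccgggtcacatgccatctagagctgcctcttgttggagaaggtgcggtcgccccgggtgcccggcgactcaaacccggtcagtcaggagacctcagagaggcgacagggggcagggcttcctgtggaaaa
Tifa promoter, downstream start: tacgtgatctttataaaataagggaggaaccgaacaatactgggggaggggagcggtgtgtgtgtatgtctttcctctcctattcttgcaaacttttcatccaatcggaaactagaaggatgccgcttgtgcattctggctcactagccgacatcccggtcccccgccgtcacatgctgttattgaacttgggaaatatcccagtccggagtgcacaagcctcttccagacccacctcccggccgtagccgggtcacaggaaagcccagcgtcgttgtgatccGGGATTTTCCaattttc
Nfkbia promoter: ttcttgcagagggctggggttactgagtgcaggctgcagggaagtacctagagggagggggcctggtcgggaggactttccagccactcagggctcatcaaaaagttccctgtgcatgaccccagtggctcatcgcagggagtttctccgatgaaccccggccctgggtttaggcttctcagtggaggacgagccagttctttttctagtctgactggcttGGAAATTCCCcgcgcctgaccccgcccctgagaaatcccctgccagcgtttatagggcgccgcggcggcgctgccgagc

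The *Tlr2* window held 5 overlapping or palindromic matches in 2 places, starting 173 and 172 bases and 8 bases before the gene start. The upstream *Tifa* window held 0 and the downstream window 1, which starts 33 bases after that start. *Nfkbia* held 1, starting 29 bases before its start. Of all 32851 RefSeq promoter windows of this length 2779 (8.46%) held a match. Of the 45 windows of the 31 members that the table matched, 13 (28.9%) did. Windows of 1 gene can overlap, and a match is a description of letters, not a site of binding.

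*Tlr2* was the most shifted receptor. Its normalized value was 72.3, 77.7, 78.3 and 131 in *2afl/fl* replicates 1 to 4, and 138, 147, 148 and 121 in *L2aKO* replicates 1 to 4. *2afl/fl* replicates 1 to 3 lay below every *L2aKO* liver, and *2afl/fl* replicate 4 reached into the range of the others, so the groups overlapped. The *2afl/fl* mean was 89.9 ± 27.8 and the *L2aKO* mean 139 ± 12.6 (SD, n = 4 each). On the log2 scale the difference was 0.66 ± 0.18 (SE), a fold of 1.58. The unadjusted limma p = 0.00342 became an adjusted p = 0.9997, and the exact two-sided permutation test gave p = 0.0571, where the smallest value the design allows is 0.0286. Without *2afl/fl* replicate 4 the groups did not overlap and the log2 fold change was 0.85, with an adjusted p = 0.346 by limma.

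*Tifa* showed the other called difference. It read 146, 195, 145 and 183 in *2afl/fl* replicates 1 to 4, and 253, 277, 171 and 308 in *L2aKO* replicates 1 to 4. *L2aKO* replicate 3 fell among the controls and the other *L2aKO* livers lay above all of them. The *2afl/fl* mean was 167 ± 25.5 and the *L2aKO* mean 252 ± 58.7 (SD, n = 4 each). The difference was 0.57 ± 0.18 (SE) on the log2 scale, a fold of 1.48. It had an unadjusted limma p = 0.00758, an adjusted p = 0.9997 and an exact permutation p = 0.0857.

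**Figure D1:**
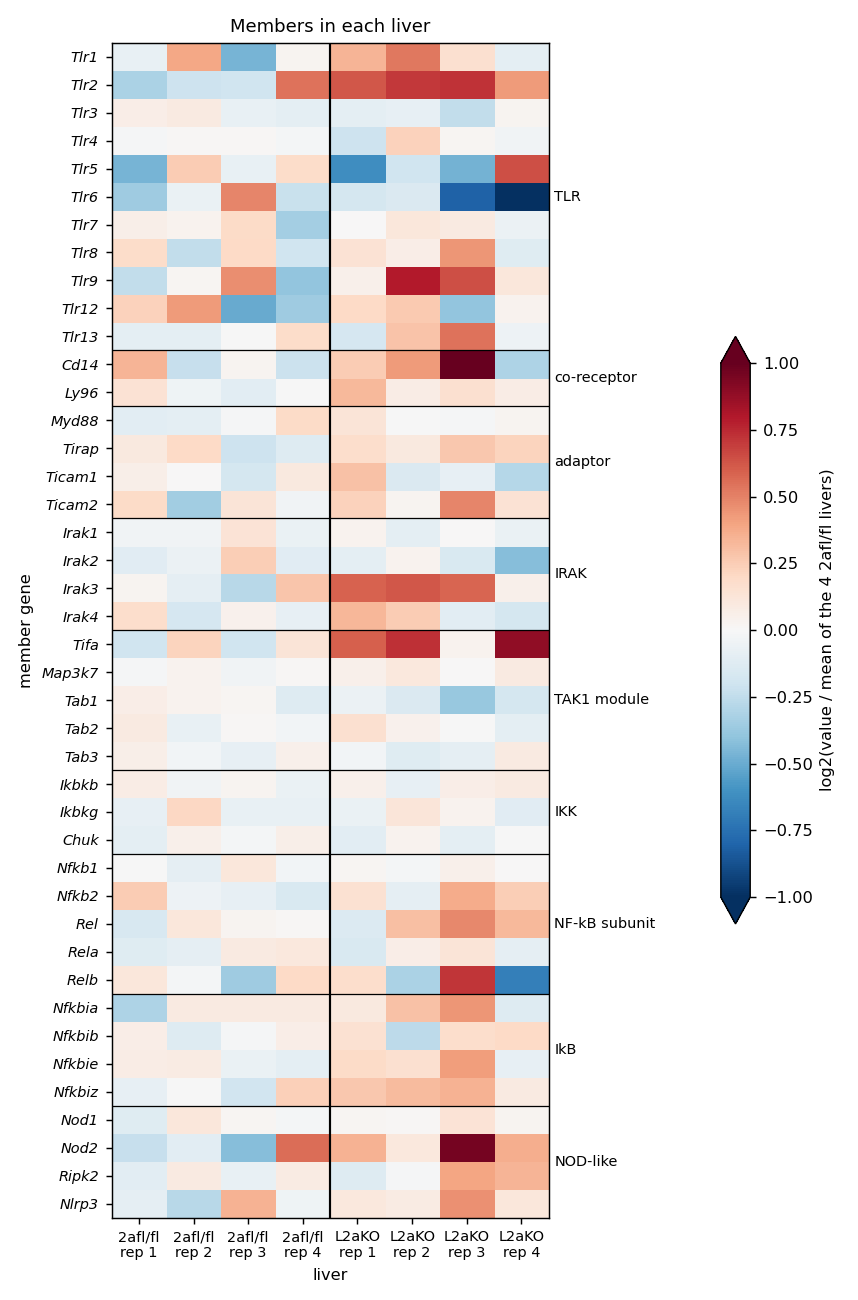
Colour gives log2 of each liver's normalized value over the mean of the 4 *2afl/fl* livers, for 42 member genes in rows ordered by role and 8 livers in columns. *Tlr2* and *Tifa* are red in most *L2aKO* columns, and the IKK and most TAK1 rows are pale throughout. *L2aKO* replicate 3 holds the highest value of 17 of the 42 genes, a count not made over all genes.

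Cells rich in TLR2 include macrophages, and the macrophage markers were read beside it. The 12 Kupffer cell markers summed to 8607 to 11109 in *2afl/fl* livers and 10083 to 12581 in livers labelled *L2aKO*. All 12 had a log2 fold change above 0 and 0 were called. The 10 markers of recruited monocytes and macrophages summed to 1091 to 1299 and 1128 to 1618, again with 10 of 10 above 0 and 0 called. One of them, *Chil3*, was at 0 in at least 1 liver. Among all genes 50.1% were above 0, and among those with a mean under 100, 55.8% were. The control liver with the highest *Tlr2*, *2afl/fl* replicate 4, had the lowest Kupffer sum, 8607. Among the controls it also had the highest neutrophil (632) and B cell (161) sums, and the lowest dendritic (462) and bile duct (930) sums. These sums add normalized values, so an abundant marker can set them. In the *2afl/fl* means *Cxcr2* was 501 of the neutrophil sum of 595, and *Lyz2* 845 of the recruited macrophage sum of 1159. *Zbtb46* was 242 of the dendritic sum of 484, and *Spp1* 673 of the bile duct sum of 1023. Sinusoidal endothelial markers summed to 10413 to 12023 and 12039 to 13274, and B cell markers to 113 to 161 and 168 to 189. Neither pair of sums overlapped, though the endothelial ranges nearly met. Taken singly, 0 of 8 endothelial and 0 of 7 B cell markers were without overlap, against 2.25% of all genes. Of the 6 measured neutrophil markers 2 were without overlap, both higher and neither called. They were *S100a9* (1.14 to 3.19 and 3.28 to 5.71) and *Csf3r* (73.2 to 83.5 and 86.8 to 88.2). Of the 8 dendritic markers 1 was without overlap, *Batf3*. The other lists had overlapping sums. They summed to 577 to 632 and 565 to 660 for neutrophils, 115 to 173 and 115 to 189 for T or NK cells, 462 to 521 and 474 to 527 for dendritic cells, 9862 to 11954 and 10107 to 11710 for stellate cells, and 930 to 1236 and 911 to 1039 for bile duct cells. Called markers were *Ms4a1* (1 of 7 measured for B cells), *Batf3* and *Ccr7* (2 of 8 for dendritic cells) and *Col1a1* (1 of 8 for stellate cells), all higher. Over all genes 1.32% were called higher. Among genes with a mean under 100, where *Ms4a1*, *Batf3* and *Ccr7* lie, 2.57% were. *Retnlg*, *Ncr1* and *Cd209a* were at 0 in at least 1 liver. The part of these cell types in the *Tlr2* and *Tifa* results was not tested.

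The 11 Toll-like receptor genes spanned a wide range of levels. Per kilobase of the longest annotated transcript, the *2afl/fl* mean was highest for *Tlr12* (153, livers 108 to 206) and *Tlr5* (118, livers 85.8 to 141), whose ranges overlap. TLR12 is known in mice as a sensor of a parasite profilin, and TLR5 binds bacterial flagellin. *Tlr3*, the endosomal receptor for viral RNA duplexes, followed at 74.6 and *Tlr4*, the lipopolysaccharide receptor, at 64.3, and here the livers did not overlap (69.8 to 79.5 against 63.5 to 65.0). *Tlr2* (29.8) and *Tlr8* (25.0) overlapped in their livers. *Tlr7* stood at 18.1, *Tlr13* at 12.1, *Tlr1* at 9.84, *Tlr6* at 6.81 and *Tlr9* at 5.43 per kilobase. Neighbours in this order overlapped in their *2afl/fl* livers from *Tlr13* downwards, and those from *Tlr5* to *Tlr13* did not, apart from *Tlr2* and *Tlr8*.

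**Figure D2:**
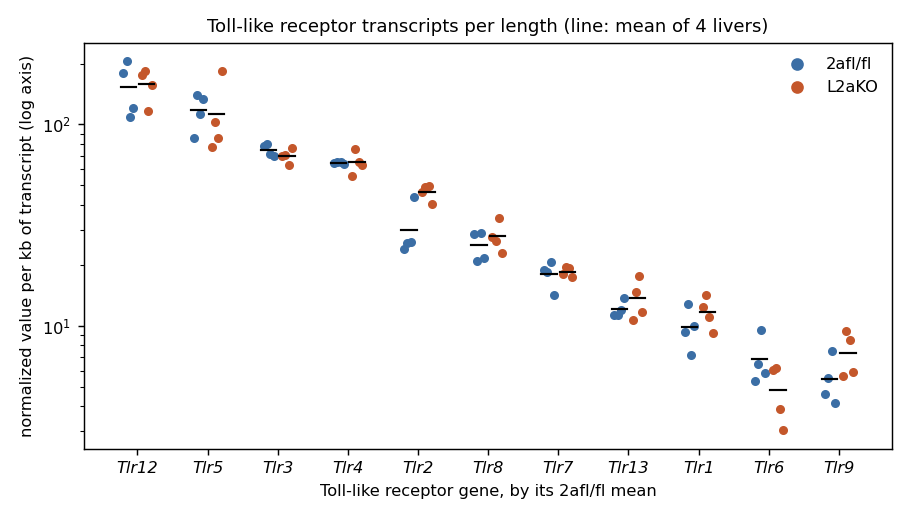
Points give the normalized value per kilobase of transcript (log axis) in each liver for the 11 Toll-like receptor genes, blue for *2afl/fl* and red for *L2aKO*, with lines at the means of 4 livers. *Tlr12* leads and *Tlr9* is lowest among the *2afl/fl* means, and *Tlr2* is the gene whose *L2aKO* mean (46.0) stands most clearly above its *2afl/fl* mean (29.8).

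Of the 11 receptors, 1 was called higher and 0 lower, and 8 had log2 fold changes above 0. Over all genes 1.32% were called higher, 0.781% lower, and 50.1% were above 0. *Tlr12* had the highest normalized value of the class. It read 571, 654, 344 and 381 in *2afl/fl* replicates 1 to 4, and 559, 584, 371 and 499 in *L2aKO* replicates 1 to 4, and the groups overlapped almost fully. The *Tlr12* log2 fold change was 0.08 ± 0.24 (SE), with an exact permutation p = 0.886. *Tlr4* was close to constant, at 259 to 265 in *2afl/fl* livers and 227 to 307 in the others, with a log2 fold change of 0.00 and a 95% interval of -0.22 to 0.22. *Tlr3* gave -0.10 with an interval of -0.29 to 0.10. Both intervals lie within the fold limit in either direction.

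*Tlr5* depended on single livers, and it is named here after its values were seen. It read 328, 536, 429 and 511 in *2afl/fl* replicates 1 to 4, and 293, 392, 325 and 705 in *L2aKO* replicates 1 to 4. *L2aKO* replicate 4 held the highest value of all 8 livers and replicate 1 the lowest. With all livers the log2 fold change was -0.14 ± 0.30 (SE). Without *L2aKO* replicate 4 it was -0.40 and was called lower, and without *L2aKO* replicate 1 it was 0.02.

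The partners of TLR2 are encoded by *Tlr1* and *Tlr6*, and neither was called. *Tlr1*, which pairs with TLR2 for triacylated lipoproteins, had a mean of 29.8 ± 7.16 in *2afl/fl* and 35.4 ± 6.36 in livers labelled *L2aKO* (SD, n = 4 each). *Tlr6*, which pairs with TLR2 for diacylated ones, had 25.0 ± 6.98 and 17.6 ± 5.78. Their log2 fold changes were 0.26 ± 0.23 and -0.51 ± 0.30 (SE), with exact permutation p = 0.286 and p = 0.200. These are neighbouring paralogs on chromosome 5, and how reads shared between them were counted is not given in the sources used here. *Tlr9*, the receptor for bacterial DNA, read 14.4 to 26.1 in *2afl/fl* and 19.6 to 32.8 in the others (log2 fold change 0.42 ± 0.27, SE). *Tlr7*, *Tlr8* and *Tlr13*, endosomal RNA sensors, gave 0.05, 0.15 and 0.16.

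The co-receptor genes *Cd14* and *Ly96* help TLR4 bind lipopolysaccharide. *Ly96*, which encodes MD-2, read 79.8, 70.3, 67.0 and 71.9 in *2afl/fl* replicates 1 to 4, and 90.5, 76.2, 80.9 and 76.2 in *L2aKO* replicates 1 to 4. Its log2 fold change was 0.16 ± 0.14 (SE), with an exact permutation p = 0.0857. *Cd14*, named after its values were seen, read 26.6 to 39.4 in *2afl/fl* livers, and 37.1, 41.8, 94.2 and 25.1 in *L2aKO* replicates 1 to 4. Replicate 3 stood far above the rest and replicate 4 below all controls. The *Cd14* log2 fold change of 0.50 ± 0.34 (SE) became 0.14 without *L2aKO* replicate 3, and 0.76, then called, without *L2aKO* replicate 4.

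Among the 4 adaptors, 0 were called. *Tirap*, which bridges TLR2 and TLR4 to MyD88, was the most abundant per gene and per kilobase (233). It read 1146, 1229, 926 and 980 in *2afl/fl* replicates 1 to 4, and 1207, 1148, 1291 and 1249 in *L2aKO* replicates 1 to 4. All *L2aKO* livers lay above the *2afl/fl* mean of 1070, and the ranges overlapped. At a log2 fold change of 0.20 ± 0.09 (SE) *Tirap* was under the fold limit, with an unadjusted limma p = 0.0394, an adjusted p = 0.9997 and an exact permutation p = 0.114. *Myd88* itself gave 0.04 (95% interval -0.14 to 0.22) and *Ticam1*, which encodes TRIF, gave -0.05 (-0.30 to 0.20). *Ticam2*, the bridging adaptor for TRIF at TLR4, was scarce, at 13.8 to 24.7 over the 8 livers.

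The 4 IRAK genes encode the kinases that bind MyD88, and IRAK-M, the product of *Irak3*, is an inhibitor of that step. None was called. *Irak1* was the most abundant, at 2095, 2096, 2360 and 2048 in *2afl/fl* replicates 1 to 4, and 2206, 2011, 2152 and 2058 in *L2aKO* replicates 1 to 4. The groups overlapped and *2afl/fl* replicate 3 was the highest of the 8 livers. *Irak1* gave a log2 fold change of -0.03 ± 0.06 (SE), with an exact permutation p = 0.714.

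*Irak3*, named after its values were seen, was near the threshold. It read 26.6, 24.5, 21.6 and 31.6 in *2afl/fl* replicates 1 to 4, and 39.2, 40.1, 39.0 and 26.9 in *L2aKO* replicates 1 to 4. As for *Tlr2*, *2afl/fl* replicate 4 was the highest control and *L2aKO* replicate 4 the lowest of its group. *Irak3* differed by 0.46 ± 0.22 (SE) on the log2 scale, with limma p = 0.0572 and an exact permutation p = 0.0571. It was called without either of those livers (0.55 and 0.59), with library weights (0.49), and with an untrended variance prior (0.46). *Irak2* gave -0.15 and *Irak4* 0.08.

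Beside *Tifa*, the module holds the TAK1 kinase (*Map3k7*) and its partners *Tab1*, *Tab2* and *Tab3*, of which 0 were called. *Tab2*, the most abundant, read 2517, 2245, 2379 and 2317 in *2afl/fl* replicates 1 to 4, and 2639, 2430, 2362 and 2213 in *L2aKO* replicates 1 to 4. *Tab2* gave a log2 fold change of 0.03 ± 0.07 (SE), with an exact permutation p = 0.686. *Map3k7* gave 0.06 (95% interval -0.05 to 0.17) and *Tab3* -0.03 (-0.19 to 0.12). *Tab1* had a mean of 149 ± 8.53 in *2afl/fl* and 131 ± 12.0 in the others (SD, n = 4 each). *L2aKO* replicates 2, 3 and 4 lay below every control and replicate 1 among them. The *Tab1* difference was -0.19 ± 0.11 (SE) on the log2 scale, with a 95% interval of -0.44 to 0.06 and an exact permutation p = 0.0571.

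None of the 3 IKK genes was called, and their 95% intervals all lay within the fold limit. *Chuk*, which encodes IKKα, had the highest level of all members. It read 5584, 6186, 5892 and 6215 in *2afl/fl* replicates 1 to 4, and 5535, 6129, 5564 and 5944 in *L2aKO* replicates 1 to 4. *Chuk* gave a log2 fold change of -0.04 ± 0.06 (SE), with an exact permutation p = 0.343. *Ikbkb*, for IKKβ, gave 0.03 (95% interval -0.10 to 0.17) and *Ikbkg*, for the scaffold NEMO, 0.00 (-0.17 to 0.17). *Ikbkg* shares 19398 bases with *G6pdx* on the opposite strand, and *Nfkb2* also overlaps opposite-strand genes. Whether counting used strand is not given in the sources used here.

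Of the 5 NF-κB subunit genes 0 were called. *Rela*, for the main activating subunit p65, was the most abundant, at 1230, 1254, 1419 and 1437 in *2afl/fl* replicates 1 to 4, and 1200, 1396, 1458 and 1255 in *L2aKO* replicates 1 to 4. *Rela* gave a log2 fold change of -0.01 ± 0.08 (SE), with an exact permutation p = 0.857. *Nfkb1*, for the p50 precursor, gave 0.02 (95% interval -0.11 to 0.15). *Nfkb2* and *Relb*, of the alternative pathway, gave 0.18 ± 0.12 and -0.01 ± 0.27 (SE).

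*Rel*, for the lymphoid and myeloid subunit c-Rel, is named after its values were seen. It read 381, 460, 432 and 428 in *2afl/fl* replicates 1 to 4, and 386, 523, 592 and 531 in *L2aKO* replicates 1 to 4. *L2aKO* replicate 1 lay among the controls and the other *L2aKO* livers above them. *Rel* gave 0.24 ± 0.12 (SE) on the log2 scale, with an exact permutation p = 0.114, and 0.37, then called, without *L2aKO* replicate 1.

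All 4 IκB genes had log2 fold changes above 0, from 0.07 to 0.26, where 50.1% of all genes were above 0. Of the 4, 0 passed the criterion, which called 2.10% of all genes. *Nfkbia*, for IκBα, was the most abundant. It read 773, 1019, 1019 and 1019 in *2afl/fl* replicates 1 to 4, and 1022, 1175, 1302 and 878 in *L2aKO* replicates 1 to 4. *L2aKO* replicates 1 to 3 lay above every control, and replicate 4 lay among them. Its log2 fold change was 0.19 ± 0.13 (SE), with an exact permutation p = 0.314. *Nfkbiz* encodes IκBζ, a nuclear member that helps switch on secondary response genes, and is named after its values were seen. It read 290, 305, 269 and 362 in *2afl/fl* replicates 1 to 4, and 371, 382, 390 and 326 in *L2aKO* replicates 1 to 4. The highest control was again *2afl/fl* replicate 4 and the lowest *L2aKO* liver again replicate 4. *Nfkbiz* gave 0.26 ± 0.10 (SE) on the log2 scale, under the fold limit, with an unadjusted limma p = 0.0251 and an exact permutation p = 0.0571. Without *2afl/fl* replicate 4 it was 0.35 and was called.

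**Figure D3:**
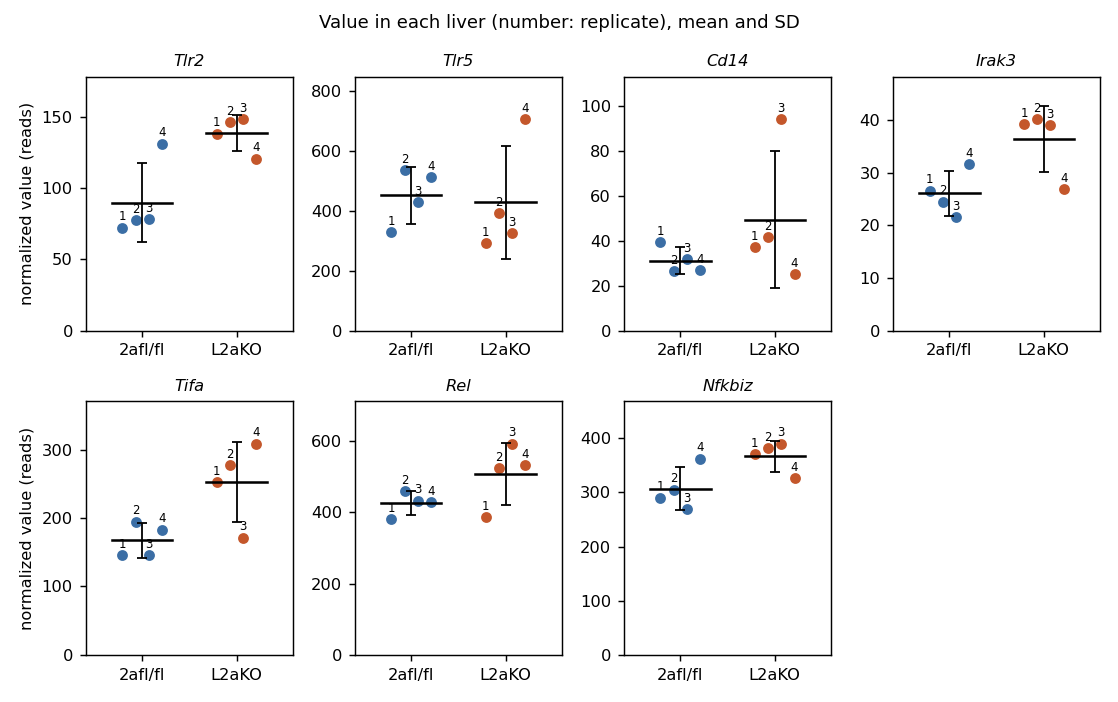
Normalized values (reads after size-factor scaling, axis from 0) of the 7 members called with all livers or under any alternative, for 4 *2afl/fl* (blue) and 4 *L2aKO* (red) livers numbered by replicate, with the mean (line) and SD (bar). For *Tlr2*, *Irak3* and *Nfkbiz* replicate 4 of *2afl/fl* is the highest control and replicate 4 of *L2aKO* the lowest of its group.

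The NOD-like genes sense bacterial cell wall fragments in the cytosol (*Nod1*, *Nod2*), relay that signal (*Ripk2*), or build the inflammasome (*Nlrp3*). All 4 had log2 fold changes above 0 and 0 were called, where 50.1% of all genes were above 0 and 2.10% were called. *Nod1* was the most abundant, at 665, 781, 733 and 712 in *2afl/fl* replicates 1 to 4, and 731, 728, 794 and 736 in *L2aKO* replicates 1 to 4. Its log2 fold change was 0.05 ± 0.07 (SE), with an exact permutation p = 0.371. *Nod2* was the scarcest member, at 13.7 ± 4.41 in *2afl/fl* and 19.1 ± 5.19 in the others (SD, n = 4 each), or 0.46 ± 0.30 (SE) on the log2 scale. At its mean of 16.4 reads, counting error alone gives a coefficient of variation of 24.4%, against 1.30% for *Chuk*. *Ripk2* gave 0.15 and *Nlrp3* 0.20.

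**Figure D4:**
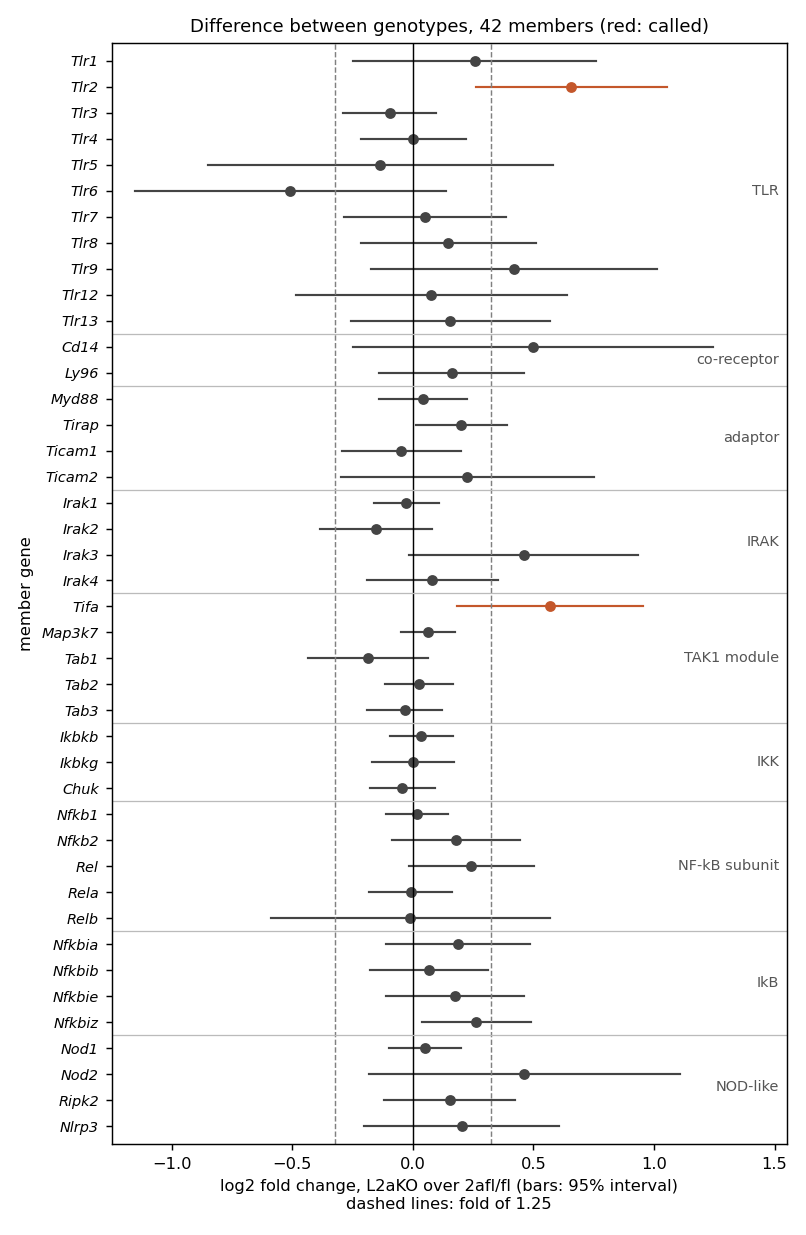
Points give the log2 fold change of *L2aKO* over *2afl/fl* on the log2(value + 1) scale and bars its 95% interval for the 42 members, grouped by role, with dashed lines at the fold limit (0.32). *Tlr2* and *Tifa* (red) are the called members, and 15 members have intervals wholly between the dashed lines.

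Over all 42 members, 31 log2 fold changes were above 0 and 11 below, against 50.1% above 0 among all genes, and the median was 0.07 against 0.00034 for all genes. An unadjusted p under 0.05 was reached by 4 members (*Tlr2*, *Tifa*, *Nfkbiz* and *Tirap*), all of them higher, where 3.49% of all genes reached it and 1.97% did so as higher. The *2afl/fl* and *L2aKO* values were without overlap for 0 members and for 2.25% of all genes. For 15 members, among them *Myd88*, *Map3k7*, *Rela* and the IKK genes, the 95% interval lay within the fold limit either way, which held for 43.1% of all genes. The lowest mean of these 15 was 263, so scarce members were not bounded in this way. The 13 members with a mean under 100 included 11 above 0, where 55.8% of all genes at that level were above 0. The 11 members with a mean of 1000 or more had a median absolute log2 fold change of 0.03, against 0.04 for all genes at that level. Of these 11 members 7 were above 0, where 44.3% of all genes at that level were.

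Read by liver, each *2afl/fl* liver had 19 members above the *2afl/fl* mean, and *L2aKO* replicates 1 to 4 had 29, 28, 30 and 23. The *2afl/fl* livers make up that mean, which holds their own counts near the middle, so the 2 sets of counts are not alike. *L2aKO* replicate 3 held the highest value of the 8 livers for 17 members, and *L2aKO* livers together for 31. They also held the lowest value for 20. None of these counts by liver was made over all genes, so no background share stands beside them. Within-group spread was similar, with a median coefficient of variation of 10.4% in *2afl/fl* and 13.1% in livers labelled *L2aKO*.

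**Figure D5:**
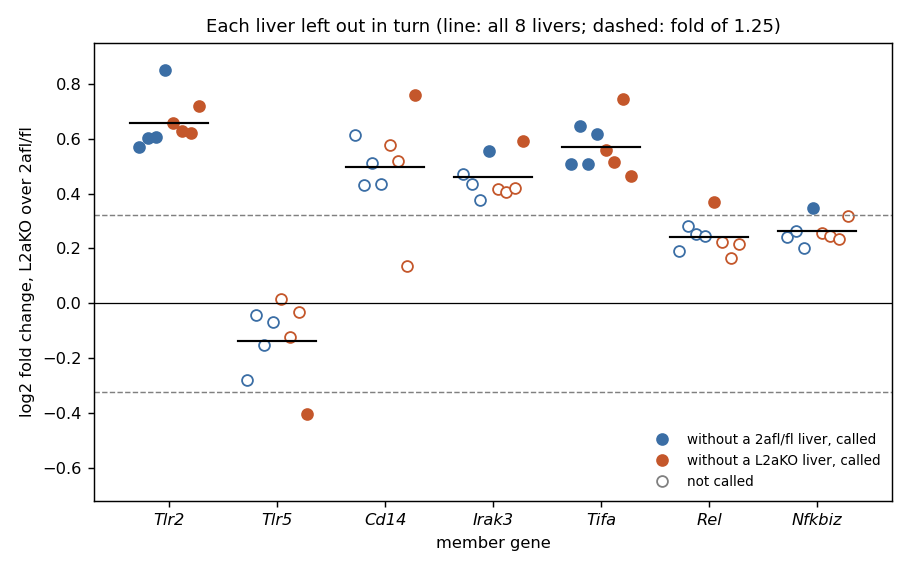
Points give the log2 fold change of *L2aKO* over *2afl/fl* with 1 liver left out (blue, a *2afl/fl* liver; red, an *L2aKO* liver; filled, called) for the 7 members called in any fit, with lines for all 8 livers and dashes at the fold limit (0.32). *Tlr2* (0.57 to 0.85) and *Tifa* (0.46 to 0.74) are filled throughout, and the other 5 are filled without particular livers.

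Genes on either side of the pathway were read from 3 further lists. Of 27 further pathway components (accessory proteins, ubiquitin enzymes, IRF factors and feedback inhibitors) 0 were called, with a median log2 fold change of 0.01. The most abundant, *Hsp90b1*, the chaperone that folds Toll-like receptors, read 18254 ± 1810 in *2afl/fl* and 16020 ± 967 in the others (SD, n = 4 each), or -0.18 ± 0.08 (SE) on the log2 scale. Of 25 measured textbook NF-κB target genes, 3 were called higher and 0 lower, 22 were above 0, and the median was 0.16. Over all genes 1.32% were called higher, and among genes with a mean under 100, where the 3 called targets lie, 2.57% were called higher and 55.8% were above 0. The called targets were scarce transcripts. *Il23a*, a cytokine subunit, read 1.06 to 2.27 in *2afl/fl* livers and 2.79 to 11.4 in the others, without overlap, with a log2 fold change of 1.27 ± 0.47 (SE). *Bcl2a1b*, a survival gene of leukocytes, read 3.19 to 6.53 and 7.43 to 13.9, also without overlap (0.92 ± 0.36, SE). *Il23a* and *Bcl2a1b* were the 2 of 25 measured targets without overlap, against 2.25% of all genes. *Ccl2*, the monocyte chemokine, read 2.13, 7.45, 3.41 and 0 in *2afl/fl* replicates 1 to 4, and 5.45, 3.28, 19.0 and 12.1 in *L2aKO* replicates 1 to 4, with overlap (1.49 ± 0.67, SE). Values this low rest on a few reads a liver, and the part of leukocyte numbers in them was not tested. Of 8 inflammasome genes 0 were called, and *Gsdmd*, the most abundant, gave 0.13 ± 0.09 (SE).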

How the data were processed

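Liver total RNA was sequenced by a service provider. According to the study's methods and the labels, the authors aligned reads to mm10 with STAR 2.7.8a in Partek Flow 10 and tested genes with DESeq2. The deposited table holds 1 normalized signal per gene and liver, which the authors made by dividing read numbers by a size factor per library, not by length, as judged from the steps between values and the tool named in the labels. Between 88.7% and 89.3% of values under 100 reads came within 0.02 of a whole number of reads, too few to recover counts, so the test was run on the log scale and no count test was made.

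Values were taken as log2(value + 1) for genes with a mean of at least 1, and all 8 livers were fitted together in limma 3.58.1 (R 4.3.3; eBayes with trend and robust). A gene was called at an unadjusted two-sided p under 0.05 and a log2 fold change of at least 0.32 in either direction, the study's criterion, with Benjamini-Hochberg p-values over all 16650 genes beside it. Fold changes on this scale understate changes of scarce genes. Members, wider lists and markers were chosen with earlier results of these data known. The rule for named genes took called members, members without overlap between groups and the most abundant member of each role, and from the wider lists the called genes or else the most abundant one. Other genes given with values (among them *Tlr1*, *Tlr6*, *Tlr9*, *Tab1*, *Nod2*, *Il18*, *Lcn2* and *Tnfaip3*) were chosen after their values were seen. Levels per kilobase used the longest GENCODE M21 protein-coding transcript, and promoters came from RefSeq (GRCm38.p6). The study's methods call its samples biological replicates. The limma p-values weigh a difference against the spread between these 4 livers of each genotype, with each gene's variance drawn towards a trend over all genes. All 28 pairs of libraries differed beyond sampling noise (chi-square per degree of freedom 24.0 to 121). Coordinates are those of the table, which counts from 1. Alternatives altered pseudocount, low-value filter, scaling, variance prior, library weights, the replicate block, the fold limit and each liver in turn. The fit was tested on simulated data.

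The lists read beside the members were these. Further pathway components: *Lbp*, *Cd36*, *Unc93b1*, *Hsp90b1*, *Cnpy3*, *Traf6*, *Traf3*, *Tollip*, *Sigirr*, *Peli1*, *Peli2*, *Ube2n*, *Ube2v1*, *Tbk1*, *Ikbke*, *Irf3*, *Irf5*, *Irf7*, *Map3k14*, *Map3k8*, *Tnfaip3*, *Tnip1*, *Cyld*, *Otulin*, *Bcl3*, *Nfkbid* and *Commd1*. NF-κB targets were 30 textbook genes, of which 25 were in the table used, and the inflammasome list held 8 genes. Markers covered 10 cell types.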

Additional observations from a re-analysis of the deposited data

Results flagged for a closer look

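In 9 of the 84 groups of 4 livers (42 members in each genotype), 1 liver stood apart from the other 3 by Dixon's criterion at the 95% level, where chance gives about 1 in 20 groups, or 4.2. *Tlr2* read 131 in *2afl/fl* replicate 4 against 72.3 to 78.3 in the other *2afl/fl* livers. *Irak1* read 2360 in *2afl/fl* replicate 3 against 2048 to 2096, and *Irak2* read 1288 in the same liver against 1005 to 1042. *Ikbkg* read 3982 in *2afl/fl* replicate 2 against 3247 to 3275, and *Nfkbia* read 773 in *2afl/fl* replicate 1 against 1019 in each of the others. Among livers labelled *L2aKO*, *Irak3* read 26.9 in replicate 4 against 39.0 to 40.1, and *Nfkbib* read 218 in replicate 2 against 290 to 299. *Nod1* read 794 in *L2aKO* replicate 3 against 728 to 736, and *Nlrp3* read 63.7 in that liver against 49.1 to 50.2.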

How the results depend on the processing

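*Tlr2* and *Tifa* were called in the fit with all livers and in each of the 18 alternatives at the same fold limit, leave-one-out fits included. Among these, the fit without a low-value filter held the same 16650 genes as the main fit and only repeated it. At a fold limit of 1.5 the members called higher fell to 1, and calls over all genes were 212 (138 higher, 74 lower) against 349 (219 higher, 130 lower). A mean of at least 10 gave 229 calls, 80 of them lower. Quantile normalization moved the split to 167 higher and 169 lower, with the member calls still 2 and 0. Leaving out each liver in turn gave 299 to 427 calls over all genes, 84 to 191 of them lower (84 without *2afl/fl* replicate 3), 2 to 4 members higher (4 without *2afl/fl* replicate 4 and 4 without *L2aKO* replicate 4) and 0 to 1 lower (1 without *L2aKO* replicate 4). *Mfsd2a* ranged from 0.69 to 1.49 on the log2 scale and was called without *2afl/fl* replicate 2 (1.49).

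Members near 0 changed sign. *Tlr4* was -0.013 with library weights, *Relb* was 0.039 with library weights and 0.00010 when scaled to the same total, and *Rela* was 0.0016 when scaled to the same total. With each liver left out in turn the log2 fold change ranged from -0.073 to 0.072 for *Tlr4*, -0.40 to 0.016 for *Tlr5*, -0.057 to 0.12 for *Tlr7*, -0.074 to 0.23 for *Tlr12*, -0.16 to 0.028 for *Ticam1*, -0.050 to 0.018 for *Irak1*, -0.0046 to 0.16 for *Irak4*, -0.018 to 0.067 for *Tab2*, -0.042 to 0.073 for *Ikbkg*, -0.013 to 0.054 for *Nfkb1*, -0.056 to 0.038 for *Rela* and -0.25 to 0.20 for *Relb*. The cause was not tested.

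The genotypes share replicate numbers. Over all genes, livers with the same number did not deviate together (correlations -0.12 to 0.06), and shared factors for single genes were not tested. With the replicate block the SE of *Tlr12* went from 0.24 to 0.10 and that of *Tlr5* from 0.30 to 0.15. That of *Tlr2* went from 0.18 to 0.19. With the replicate block 359 genes were called over all genes, and the block left the member calls at 2 higher and 0 lower. The 13 members with a mean under 100 had a median SE of 0.23 on the log2 scale, against 0.35 for all genes at that level. The part of sequencing depth in that SE was not tested.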

Other observations

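The inflammasome cytokine gene *Il18* read 152 to 179 in *2afl/fl* livers and 165 to 236 in livers labelled *L2aKO*, with a log2 fold change of 0.27 ± 0.12 (SE), under the fold limit. *Lcn2*, an acute-phase NF-κB target, read 29.8 to 65.9 and 49.9 to 126 (0.66 ± 0.34, SE), and *Tnfaip3*, which encodes the feedback inhibitor A20, read 95.3 to 134 and 124 to 142 (0.24 ± 0.13, SE). Neither was called. *Sod2*, an abundant mitochondrial NF-κB target, was level, at 5601 to 6140 and 5712 to 6283. Among the markers of other cells, *Batf3* of dendritic cells read 1.06 to 10.2 and 18.1 to 25.1, without overlap, while the 8 dendritic markers together summed to 462 to 521 and 474 to 527. *Adgre1* and *Marco* of macrophages were highest in *L2aKO* replicate 2, at 1137 and 377, and are named after their values were seen. Other Kupffer cell markers were mixed in that liver. *Cd5l* (3373) and *Csf1r* (2047) were also highest there, while *Vsig4* (461), *C1qc* (418) and *Folr2* (187) were the lowest among *L2aKO* livers. *Tlr2* read 147 there, close to *L2aKO* replicates 1 and 3, and its relation to these markers was not tested.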
